A study of Rattus norvegicus with 9 samples.

Results

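This comparison set alveolar macrophages taken 28 d after nitrogen mustard (NM) against those taken 1 d after it, the late and the acute stage of the same lung injury. It rested on 6 of the 9 libraries of the series, 3 labelled NM day 1 and 3 labelled NM day 28, chosen by their labels. The rats were male Wistar rats given mechlorethamine, a nitrogen mustard, into the trachea at 0.125 mg/kg, and the other 3 libraries came from rats given phosphate-buffered saline (PBS) in the same way. The animals' age was not given, and the time of the PBS collection was not given in the sources used here. Time after NM and the age of the rats therefore rose together between the NM groups and cannot be told apart. The series' design text speaks of 3 biological replicates per exposure group without saying whether each was a single animal, so p-values measure the spread between these samples. Of 17086 genes in the files, 9693 with an FPKM (fragments scaled to the length of the transcript and the size of the library) of at least 1 in at least 3 of the 6 libraries were tested.

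Alveolar macrophages are phagocytes that live on the airway side of the lung's gas exchange surface. They clear particles, dying cells and spent surfactant, the lipid and protein film that keeps the airspaces open, and much of their metabolism serves the uptake, storage and export of lipid. Nitrogen mustard alkylates DNA and cross-links its strands. After such an injury monocytes enter from the blood, drawn by chemokines, and become macrophages beside the resident cells, while macrophages that hold much lipid are known as foam cells. Genes of MHC class II, which presents peptides to helper T cells, are switched on by the coactivator Ciita.

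The libraries differed in ways that touch every result below. Transcripts above 0 numbered 12112 to 12516 in the NM day 1 libraries and 11149 to 11339 in the NM day 28 libraries. Relative depth, read from the steps of low FPKM values with NM day 1 replicate 0 set to 1, ran from 1 to 1.47 at day 1 and from 1.03 to 1.12 at day 28. Ftl1, the ferritin light chain and the highest gene in every library, took 3.15% to 4.11% of the FPKM sum at day 1 and 7.80% to 8.51% at day 28. NM day 28 replicate 1 stood apart from its group, with Spearman's rho across genes of 0.952 and 0.954 to its fellows against 0.979 between those 2. Between the NM groups rho ran from 0.921 to 0.945. The label of alveolar macrophages was met by high levels of Cd68 (813 FPKM at day 1 and 1020 at day 28, group means), Plet1 (715 and 750), Mrc1 (322 and 229) and Fabp4 (315 and 410). Marco, a scavenger receptor often used as a marker of these cells, was listed at 0 in all 9 libraries.

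More genes fell than rose between day 1 and day 28, and the excess of falls lay among genes of low level. At day 28, 480 genes were higher (4.95% of those tested) and 686 lower (7.08%) at an adjusted p under 0.05. Among them 131 rose by more than 2-fold (1.35%) and 496 fell by more than 2-fold (5.12%). Differences are given on the log2(FPKM + 1) scale as NM day 28 minus NM day 1 with the SE of the fit, and adjusted p is from limma with Benjamini-Hochberg adjustment over all genes tested. The median difference over all genes was 0.00. The balance depended on level: of 1566 genes whose higher group had a mean under 5 FPKM, 16 rose and 202 fell, and from 5 to 20 FPKM 90 rose and 244 fell. Above that level rises were the more frequent, with 258 against 168 from 20 to 100 FPKM and 116 against 72 at 100 FPKM or more. With a filter of 5 FPKM in place of 1, 430 were higher and 403 lower, and 109 rose and 257 fell by more than 2-fold. The NM groups did not overlap for 3005 genes (31.0%), 1154 of the 1166 called genes among them. With 1 library left out, the higher calls fell to 273, 245 and 300 without NM day 1 replicate 0, 1 and 2, and to 233 and 271 without NM day 28 replicate 0 and 2. The lower calls fell to 435 and 401 without NM day 1 replicate 0 and 1. Without NM day 28 replicate 1, the library that stood apart, 629 genes were higher and 781 lower.

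**Figure D1:**
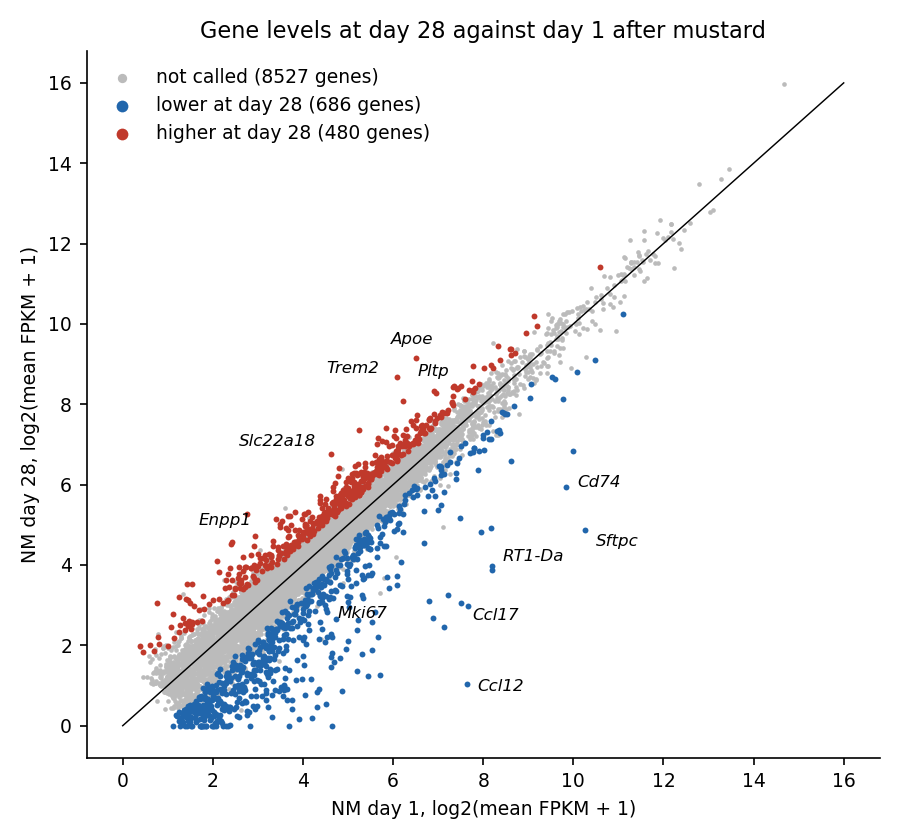
Each point is a gene, with the log2 of its mean FPKM plus 1 in the NM day 1 libraries on the x axis and in the NM day 28 libraries on the y axis (n = 3 each), and the line marks equal levels. The 686 genes called lower (blue) reach far from the line, Ccl12, Sftpc and Cd74 among them, while the 480 called higher (red) lie closer to it, with Apoe, Trem2 and Enpp1 among the farthest.

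Gene lists for pathways and cell types separated by direction. MHC class II, chemokine ligands, mitosis and DNA replication lost members at several times the share over all genes, and so did the alveolar epithelial markers. Sterol biosynthesis and cholesterol efflux were the pathway lists of more than 20 tested genes with the largest share of members that rose. Glycolysis had 19 members tested and none called by limma, with 1 higher and 2 lower at an unadjusted p under 0.05.

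**Figure D2:**
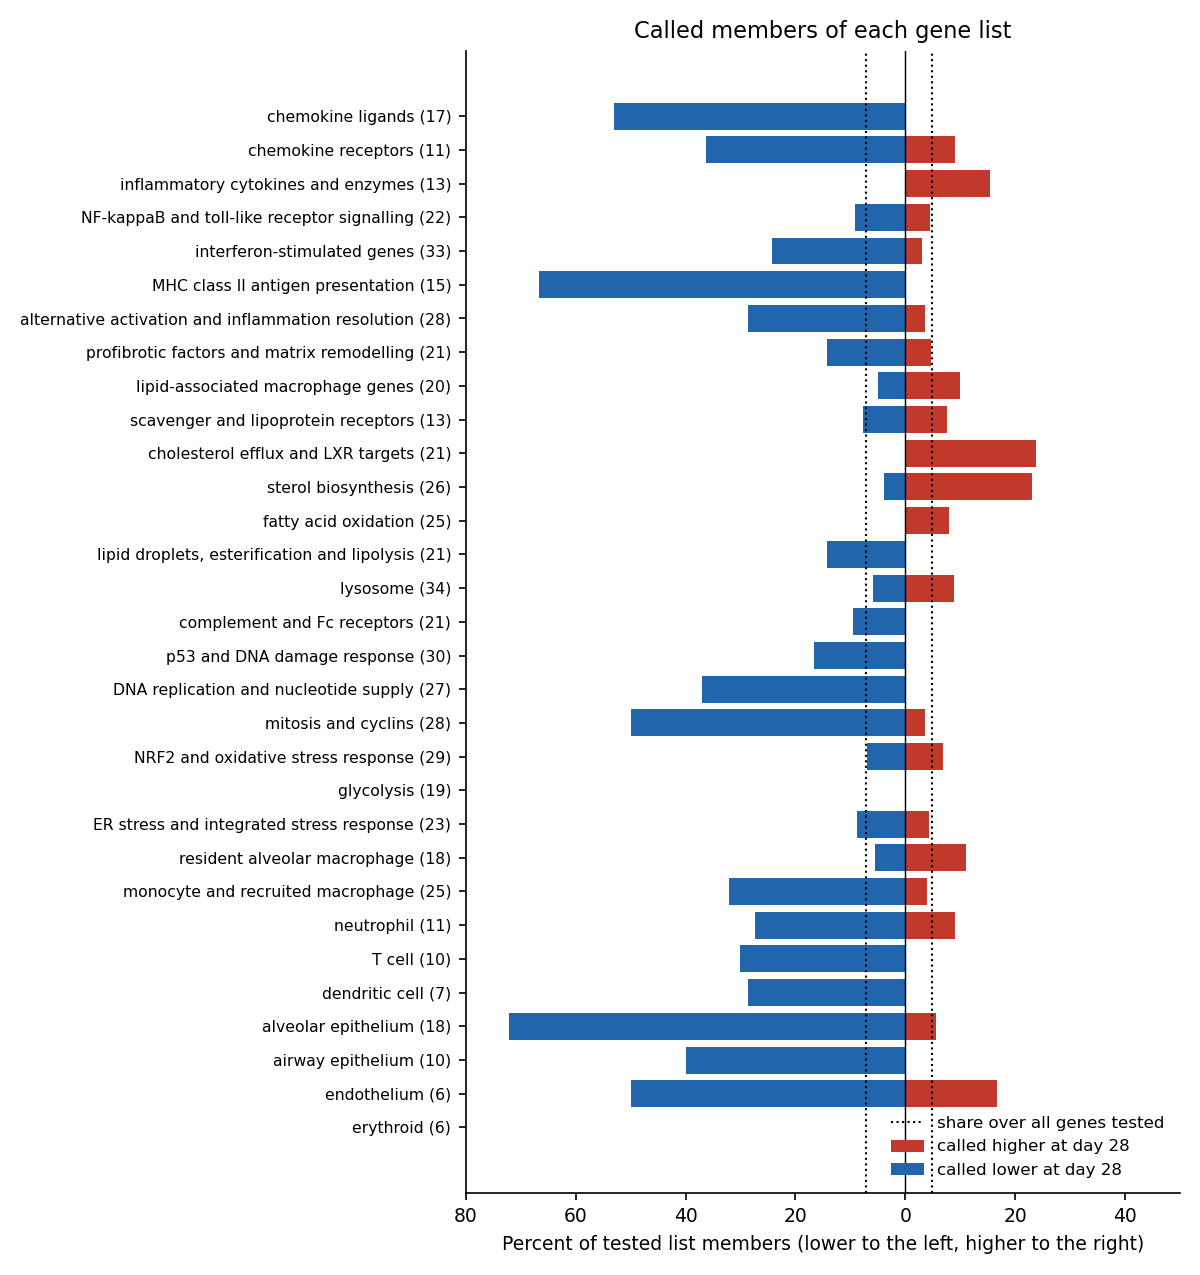
Bars give the percent of each list's tested members called lower at day 28 (blue, to the left) and higher (red, to the right), with the number of members tested in brackets, for lists with at least 5. Dotted lines mark the share over all genes tested, 7.08% lower and 4.95% higher; MHC class II (10 of 15 lower) and alveolar epithelium (13 of 18 lower) reach farthest to the left.

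MHC class II antigen presentation showed the deepest loss of any pathway list. Of 15 genes tested 10 fell, against 7.08% of all genes, and 9 or 10 fell with any 1 library left out. Of the 15, 3 that fell (RT1-DOa, RT1-DOb and Ciita) passed the filter through day 1 only, with 1 FPKM or more in all 3 libraries of that group and not of the other, and a gene that passes only in the group where it is high has to differ. The median difference was -2.22, and -1.79 without RT1-DOa, which was listed at 0 in every day 28 library. RT1-Da, the alpha chain of the rat DR-type molecule, read 241, 290.5 and 347 FPKM in the day 1 libraries and 22.5, 7.44 and 11.3 at day 28 (difference -4.43 ± 0.30, adjusted p = 6.32e-06). All day 28 values lay below all day 1 values and spanned those of the PBS libraries (10.8, 14.6 and 12.8). RT1-Ba, the DQ-type alpha chain, went from 193, 196 and 214 to 12.4, 2.56 and 5.91 FPKM (difference -4.87 ± 0.36, adjusted p = 9.92e-06). RT1-Db1, a DR-type beta chain, went from 260.4, 309 and 311 to 25.4, 4.15 and 14.3 FPKM (difference -4.52 ± 0.46, adjusted p = 1.42e-04). In both genes NM day 28 replicate 1 had the lowest value, and neither had overlapping groups. Cd74, the invariant chain that escorts class II molecules, had 793, 978 and 987 FPKM at day 1 and 86.2, 25.4 and 69.8 at day 28 (difference -4.07 ± 0.37, adjusted p = 4.90e-05). Ciita, the coactivator of these genes and a sum of 3 transcripts, went from 10.7, 18.3 and 13.5 FPKM to 0, 0.19 and 0.174 (difference -3.73 ± 0.29, adjusted p = 1.37e-05). The peptide-loading chain RT1-DMa fell less, from 171, 209 and 239 to 115, 105 and 111 FPKM (difference -0.88 ± 0.16, adjusted p = 0.00404). Reads of the RT1 genes may be shared among near-identical copies. For other antigen-presenting cells, FPKM was summed over all list members with values. The dendritic cell list (8 genes) ran from 135.4 to 167.7 at day 1, from 81.32 to 103.9 at day 28 and from 110 to 134.6 in PBS. Of its 7 tested members 2 fell, Ccl22 and Ccr7, and 3 passed the filter through 1 group only, Ccl22 and Ccr7 among them. The B and plasma cell list (7 genes, 3 tested) summed to 218.3 to 375.6 FPKM at day 1 and 100.2 to 251.8 at day 28, which overlap. In PBS it summed to 228.3 to 645.3, while the class II chains above were near their day 28 level there. Of the 3 tested members of the B and plasma cell list 2 fell, Blnk and Blk, and both passed the filter through day 1 only. With any 1 library left out 1 to 3 fell. Mean FPKM at day 1, at day 28 and in PBS was 7.08, 1.99 and 0.889 for Blnk and 2.06, 0.275 and 0.331 for Blk. The part of these cells in the loss was not tested. In bulk RNA, fewer cells of a type and less RNA per cell cannot be told apart.

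The class II genes that fell belong to a family known for a promoter element, the Y box, bound by the factor NF-Y next to the sites from which Ciita acts. Promoters from RefSeq (build GRCr8, from 250 bases before to 50 after the start) were found for 13 of the 15 tested genes. The letters CTGATTGG, on either strand, stood in 6 of the 13, among them 5 of the 8 that fell and 1 of the 5 not called, against 5.23% of tested genes with a promoter. The 150 bases before the start are shown for RT1-Da, RT1-Ba, RT1-Db1 and RT1-Bb, chains of the DR and DQ types. The box is in capitals and each sequence reads 5′ to 3′ on the gene's strand (chr20:4515265-4515414, plus strand, chr20:4576907-4577056, plus strand, chr20:4560163-4560312, minus strand and chr20:4604119-4604268, minus strand).
RT1-Da: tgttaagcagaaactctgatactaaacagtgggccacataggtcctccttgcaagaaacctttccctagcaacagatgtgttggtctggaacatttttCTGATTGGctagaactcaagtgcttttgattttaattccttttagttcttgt
RT1-Ba: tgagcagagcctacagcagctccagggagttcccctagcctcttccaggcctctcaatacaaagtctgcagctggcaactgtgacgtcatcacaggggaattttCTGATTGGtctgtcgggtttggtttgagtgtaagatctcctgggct
RT1-Db1: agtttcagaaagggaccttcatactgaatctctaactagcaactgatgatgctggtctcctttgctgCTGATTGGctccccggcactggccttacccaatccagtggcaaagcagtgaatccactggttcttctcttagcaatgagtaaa
RT1-Bb: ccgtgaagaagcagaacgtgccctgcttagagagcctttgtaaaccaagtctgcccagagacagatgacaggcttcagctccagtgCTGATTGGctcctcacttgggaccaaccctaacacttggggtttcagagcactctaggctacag
The box began 52 bases before the start in RT1-Da, 46 in RT1-Ba, 83 in RT1-Db1 and 64 in RT1-Bb. In RT1-DOa, which also fell and is not shown, it began 110 bases before the start. RT1-Bb, the DQ-type beta chain, went from 39.5, 56.9 and 45.5 to 9.69, 2.17 and 6.39 FPKM (difference -2.92 ± 0.37, adjusted p = 5.98e-04). A match describes the sequence and is not evidence of binding.

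Chemokine ligands, attractants of monocytes and T cells among them, were the other deep loss. Of 17 tested 9 fell (8 or 9 with any 1 library left out), with a median of -1.66, or -0.98 without Ccl5, which was listed at 0 in each day 28 library; 5 of the 17 passed the filter through 1 group only, Ccl12 and Ccl22 among them. Ccl12, a monocyte attractant that acts through Ccr2, had the largest fall among the named genes, from 208, 220.1 and 170.5 FPKM to 0.763, 2.37 and 0 (difference -6.78 ± 0.35, adjusted p = 1.76e-06). Ccl7, with the same receptor, went from 142, 124 and 66.8 to 10.9, 3.77 and 8.29 FPKM (difference -3.72 ± 0.37, adjusted p = 1.19e-04). The lowest day 28 value of Ccl7 was above the highest PBS value (1.34, 0.264 and 1.04). Ccl17 and Ccl22, the ligands of Ccr4 on T cells, both fell. Ccl17 went from 134, 264 and 148 to 4.38, 2.26 and 15.2 FPKM (difference -4.73 ± 0.48, adjusted p = 1.48e-04), and Ccl22 from 38.8, 50.6 and 38.98 to 1.51, 0.585 and 1.98 FPKM (difference -4.25 ± 0.31, adjusted p = 9.28e-06). Ccl2, the main monocyte attractant, read 181, 146 and 69.7 FPKM at day 1 and 63.1, 16.7 and 51.9 at day 28, with every day 28 library above PBS (0.598, 1.38 and 3.24; difference -1.66 ± 0.49, adjusted p = 0.0467). That call ended without NM day 1 replicate 0 or 1, without NM day 28 replicate 1 or 2 and without PBS replicate 1, with adjusted p from 0.0618 to 0.165. It also ended, with every library kept, under library weights, robust eBayes, no filter, a pseudocount of 0.1 and transcripts tested singly (adjusted p from 0.0647 to 0.0903). The other falls were in Ccl24, Cxcl10, Ccl5 and Cxcl1 (differences -2.58, -2.475, -1.95 and -1.86, adjusted p = 1.89e-04, 0.00312, 0.005 and 0.0155). Of these, Cxcl10, Ccl5 and Cxcl1 passed the filter through day 1 only. The remaining ligands tested did not pass. Ccl3, an inflammatory chemokine, had means of 266 and 287 FPKM and Ccl6, the highest of the list, 2803 and 2635.

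Among 11 chemokine receptors 4 fell and 1 rose, with a median of -1.02, and 5 of the 11 passed the filter through 1 group only, Ccr2 and Ccr7 among them. Ccr2, the receptor of Ccl2, Ccl7 and Ccl12, went from 3.33, 6.604 and 9.25 to 0, 0.638 and 0.59 FPKM (difference -2.34 ± 0.34, adjusted p = 0.00131). Ccr7, which guides dendritic cells to lymph nodes, went from 14.6, 10.3 and 6.38 to 0.282, 2.04 and 0.538 FPKM (difference -2.58 ± 0.36, adjusted p = 0.00106). The related receptors Cxcr1 and Cxcr2, known from neutrophils, moved in opposite directions. Cxcr1 rose from 129, 171 and 185 to 344, 361 and 343 FPKM (difference 1.12 ± 0.20, adjusted p = 0.00463), and Cxcr2 fell from 29.02, 22.1 and 15.4 to 5.14, 4.78 and 8.33 FPKM (difference -1.70 ± 0.27, adjusted p = 0.0022). Cxcr1 read 373, 274 and 218 FPKM in the PBS libraries, above all day 1 values, while Cxcr2 was under 1 FPKM in each of them. Leaving out NM day 28 replicate 1 or PBS replicate 0 gave 2 receptors that rose.

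**Figure D3:**
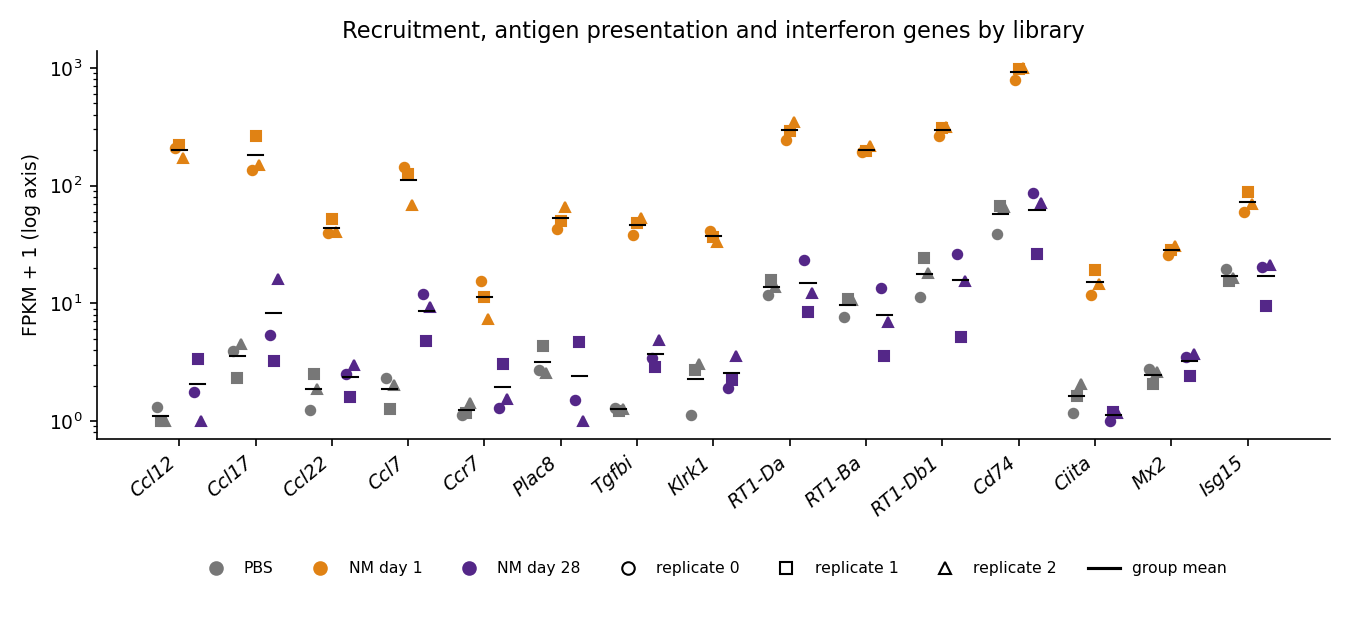
FPKM plus 1 on a log axis for 15 genes in each of the 9 libraries (grey PBS, orange NM day 1, purple NM day 28; marker shape gives the replicate number, black lines group means). In every gene shown the 3 day 1 libraries lie above the 3 day 28 libraries, and the day 28 points of Ccl12, Plac8 and Ciita reach 0 FPKM.

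Several genes of recruited monocytes also fell. Of 25 tested monocyte and recruited macrophage markers 8 fell and 1 rose, with a median of -0.73. Of the 25, 10 passed the filter through 1 group only, Plac8 and Vcan among them. Plac8, a monocyte gene, went from 42.1, 48.7 and 64.4 to 0.515, 3.73 and 0 FPKM (difference -4.75 ± 0.46, adjusted p = 8.81e-05), and Tgfbi, a matrix-binding protein of monocytes and macrophages, from 37.1, 46.7 and 52.4 to 2.41, 1.87 and 3.89 FPKM (difference -3.66 ± 0.24, adjusted p = 6.32e-06). Tgfbi in each day 28 library was above each PBS library (0.299, 0.207 and 0.272). Vcan, the proteoglycan versican, went from 10.4, 14.2 and 15.4 to 0.641, 1.303 and 1.69 FPKM (difference -2.71 ± 0.32, adjusted p = 4.31e-04). The member that rose was Apoe, described with the lipid genes. With any 1 library left out 7 to 10 members fell.

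Interferon-stimulated genes were lower at day 28 in most members, but few passed. Of 33 tested 8 fell and 1 rose (6 to 9 fell with any 1 library left out), 29 had a difference below 0, and the median was -0.52. Library weights gave 15 that fell. Mx2, an antiviral GTPase, went from 24.8, 27.4 and 29.5 to 2.49, 1.42 and 2.73 FPKM (difference -3.16 ± 0.23, adjusted p = 9.92e-06). Isg15, a ubiquitin-like modifier, went from 58.5, 86.5 and 68.1 to 19.2, 8.42 and 20.1 FPKM (difference -2.16 ± 0.28, adjusted p = 6.80e-04), which spans the PBS values (18.4, 14.6 and 15.5). Rsad2, the antiviral enzyme viperin, had 4.11, 3.98 and 4.38 FPKM at day 1 and 0.7, 0.362 and 0.0832 at day 28 (difference -1.92 ± 0.26, adjusted p = 9.48e-04), and passed the filter through day 1 only. Irf7, the transcription factor that amplifies the interferon response, went from 31.7, 37.8 and 47.4 to 9.97, 11.2 and 13.8 FPKM (difference -1.65 ± 0.23, adjusted p = 9.57e-04). Bst2, the membrane tether known as tetherin, fell from 693, 1003 and 925 to 357, 167 and 310.5 FPKM (difference -1.70 ± 0.28, adjusted p = 0.00287), below its PBS range (1697, 1466 and 1056). The member that rose, Ifi44, passed narrowly (difference 0.88 ± 0.26, adjusted p = 0.0483) and did not pass without NM day 1 replicate 0 or 1 or any 1 of the NM day 28 or PBS libraries, with adjusted p up to 0.173, nor in 9 of the 12 alternatives that kept every library. Stat2, which carries the interferon signal, did not pass and had a difference of -0.03.

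The core letters of the interferon-stimulated response element, GAAANNGAA on either strand, were found in the promoters of 18 of 26 matched list members and of 7.64% of tested genes. They stood in 4 of the 5 matched members that fell and in 13 of the 20 that were not called. As examples among those, the 150 bases before the start are given for Irf7 (chr1:205800024-205800173, minus strand) and Bst2 (chr16:18254968-18255117, minus strand), with matches in capitals (overlapping matches run together, and in Irf7 the letters read on the other strand).
Irf7: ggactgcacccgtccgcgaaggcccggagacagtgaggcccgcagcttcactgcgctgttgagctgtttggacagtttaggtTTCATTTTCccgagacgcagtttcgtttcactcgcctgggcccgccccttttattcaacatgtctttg
Bst2: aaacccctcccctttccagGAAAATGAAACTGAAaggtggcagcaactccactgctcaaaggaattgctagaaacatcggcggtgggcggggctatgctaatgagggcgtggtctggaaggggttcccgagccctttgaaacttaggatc

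A list of alternative activation, the macrophage state driven by interleukin 4, and of inflammation resolution had more falls than rises. Of 28 tested 8 were lower and 1 higher, against 7.08% and 4.95% of all genes, with a median of -0.42. However, 4 and 5 were lower without NM day 1 replicate 0 and 1, and 2 were higher without NM day 28 replicate 1 or PBS replicate 0 or 2. Of the 28, 3 passed the filter through 1 group only, Clec10a and Cd163 among them. Clec10a, a galactose-binding lectin, went from 30.2, 58.7 and 59.4 to 4.49, 0.929 and 5.35 FPKM (difference -3.57 ± 0.46, adjusted p = 7.01e-04). Alox15, a lipoxygenase that makes resolving lipid mediators, went from 33.2, 27.03 and 30.7 to 10.03, 7.62 and 7.58 FPKM (difference -1.74 ± 0.22, adjusted p = 5.66e-04), below its PBS range (49.1, 37.5 and 26.9). Il1rl1, the receptor of interleukin 33, went from 6.16, 6.61 and 5.86 to 2.35, 2.51 and 1.72 FPKM (difference -1.18 ± 0.22, adjusted p = 0.00548). Cd163, a haemoglobin scavenger receptor, read 1.105, 2.03 and 4.72 FPKM at day 1 and was listed at 0 in each day 28 and PBS library. The member that rose was Pparg, the lipid-sensing nuclear receptor of resident alveolar macrophages, from 115, 105 and 140.5 to 178, 193 and 178 FPKM (difference 0.61 ± 0.15, adjusted p = 0.0185). It did not pass with NM day 1 replicate 0 or 1 left out singly, nor without NM day 28 replicate 0 or 2, with adjusted p from 0.0503 to 0.0806. Arg1, arginase, and Nos2, the inducible nitric oxide synthase, did not pass (differences -0.35 and -0.51, adjusted p = 0.576 and 0.496).

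Most classical inflammatory cytokines and enzymes did not pass. Of 13 tested 2 rose, against 4.95% of all genes, and the others did not pass, with a median of 0.11. Il1b, interleukin 1 beta, read 189.8, 129 and 78.9 FPKM at day 1 and 169, 40.4 and 136 at day 28 (difference -0.35 ± 0.45, adjusted p = 0.668). Its lowest value of the 6 was in NM day 28 replicate 1, the groups overlapped, and all 6 were above PBS (15.3, 12.2 and 9.57). Tnf had 17.01, 10.3 and 8.12 FPKM at day 1 and 8.41, 11.3 and 7.46 at day 28 (difference -0.31 ± 0.25, adjusted p = 0.476). Casp1, the protease that matures interleukin 1 beta, rose from 119, 85.1 and 125 to 182, 216 and 186 FPKM (difference 0.84 ± 0.17, adjusted p = 0.00738). Lif, a cytokine of the interleukin 6 family, rose from 6.41, 6.804 and 3.35 to 11.04, 16.1 and 16.2 FPKM (difference 1.27 ± 0.27, adjusted p = 0.00938), above each PBS value (3.84, 4.55 and 5.95). In the signalling list of toll-like receptors and NF-kappaB, 1 of 22 rose and 2 fell, near the share over all genes. Both falls ended without NM day 1 replicate 0, 1 ended without any of NM day 1 replicates 1 and 2, NM day 28 replicates 0 and 2 and PBS replicate 1 left out singly, and 2 genes rose without NM day 28 replicate 1. The rise was in Nfkbib, an inhibitor of NF-kappaB (19.9, 19.9 and 21.6 to 36.8, 37.3 and 52.1 FPKM, difference 0.99 ± 0.18, adjusted p = 0.00413).

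Most neutrophil genes had differences below 0, and few passed. Of 11 tested 1 rose (Cxcr1) and 3 fell, against 4.95% and 7.08% of all genes, and 9 had a difference below 0. Retnlg was among the falls and among the 2 that passed the filter through 1 group only. Without NM day 1 replicate 0, 1 fell. Cxcr1 was also high in PBS (373, 274 and 218 FPKM). S100a9, a subunit of calprotectin, read 416, 299 and 161 FPKM at day 1 and 319.7, 78.3 and 346 at day 28 (difference -0.40 ± 0.52, adjusted p = 0.673). The day 28 values were above PBS (1.88, 5.17 and 5.41), with the lowest again in NM day 28 replicate 1.

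Genes of lipoproteins and cholesterol handling were among those that rose at day 28. Of 21 cholesterol efflux and liver X receptor (LXR) genes tested 5 rose, against 4.95% of all genes, and the others did not pass, with a median of 0.31. The count that rose was 3 without NM day 28 replicate 0 and 4 without any other 1 library, and 1 gene fell without NM day 1 replicate 1, NM day 28 replicate 1 or PBS replicate 1, and 2 without PBS replicate 2. Apoe, the apolipoprotein with which macrophages load cholesterol onto particles, read 72.5, 151 and 47.8 FPKM at day 1 and 676, 470.4 and 553 at day 28 (difference 2.78 ± 0.37, adjusted p = 8.38e-04). The day 28 values were all above the day 1 values, which were above all PBS values (28.7, 12.1 and 19.1). Apoe is the sum of 5 transcripts among which the signal shifted between libraries. With transcripts tested singly, the one with the highest mean did not pass (adjusted p = 0.0848). Pltp, a phospholipid transfer protein, rose from 92.3, 143 and 124 to 376, 285 and 309.8 FPKM (difference 1.44 ± 0.24, adjusted p = 0.0029). Srebf1, the regulator of fatty acid synthesis that LXR induces, rose from 21.6, 29.2 and 21.5 to 51.8, 38.8 and 47.2 FPKM (difference 0.91 ± 0.19, adjusted p = 0.00852). Its day 28 values overlapped PBS (47.1, 36.8 and 35.5), and its day 1 values lay below PBS. Pltp at day 28 was above each PBS value (251, 161.5 and 130). The exporter Abca1 read 38.7, 95.8 and 35.9 FPKM at day 1 and 70.8, 128 and 76.4 at day 28 and did not pass (difference 0.78 ± 0.35, adjusted p = 0.168). Abcg1, which passes cholesterol to high-density lipoprotein, did not pass either (207, 339.9 and 286 to 242, 265 and 241 FPKM, difference -0.13 ± 0.19, adjusted p = 0.712), and neither did Nr1h3, the receptor LXR alpha (difference 0.26 ± 0.20, adjusted p = 0.433). Abcg1 in each NM library was below each PBS library (522, 451 and 428).

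Of 20 genes tested from the list of lipid-associated macrophages 2 rose (Trem2 and Apoe) and 1 fell (Ctsl), a share near that of all genes for the falls, with a median of 0.17. Trem2, a lipid-sensing receptor, had the largest fitted rise of the named genes, 17.02, 136 and 48.1 FPKM at day 1 against 529, 158 and 540.2 at day 28 (difference 2.85 ± 0.75, adjusted p = 0.0288). Its spread was wide in every group: NM day 1 replicate 1 and NM day 28 replicate 1 differed little, and PBS ran from 39.9 to 256 FPKM. The call ended without NM day 1 replicate 0 or 2 (adjusted p = 0.118 and 0.0753), without NM day 28 replicate 0 or 2 (0.093 and 0.0931), without a filter (0.0666) and with robust eBayes (0.0827). Spp1, osteopontin, a secreted protein of such cells, read 139, 171 and 107 FPKM at day 1 and 218, 64.2 and 259 at day 28 (difference 0.17 ± 0.69, adjusted p = 0.904), with NM day 28 replicate 1 lowest. The groups overlapped, and every value was above PBS (34.6, 5.92 and 2.58). Fabp4, a fatty acid carrier, and Plin2, the coat protein of lipid droplets, did not pass (differences 0.32 and -0.02, adjusted p = 0.707 and 0.974).

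**Figure D4:**
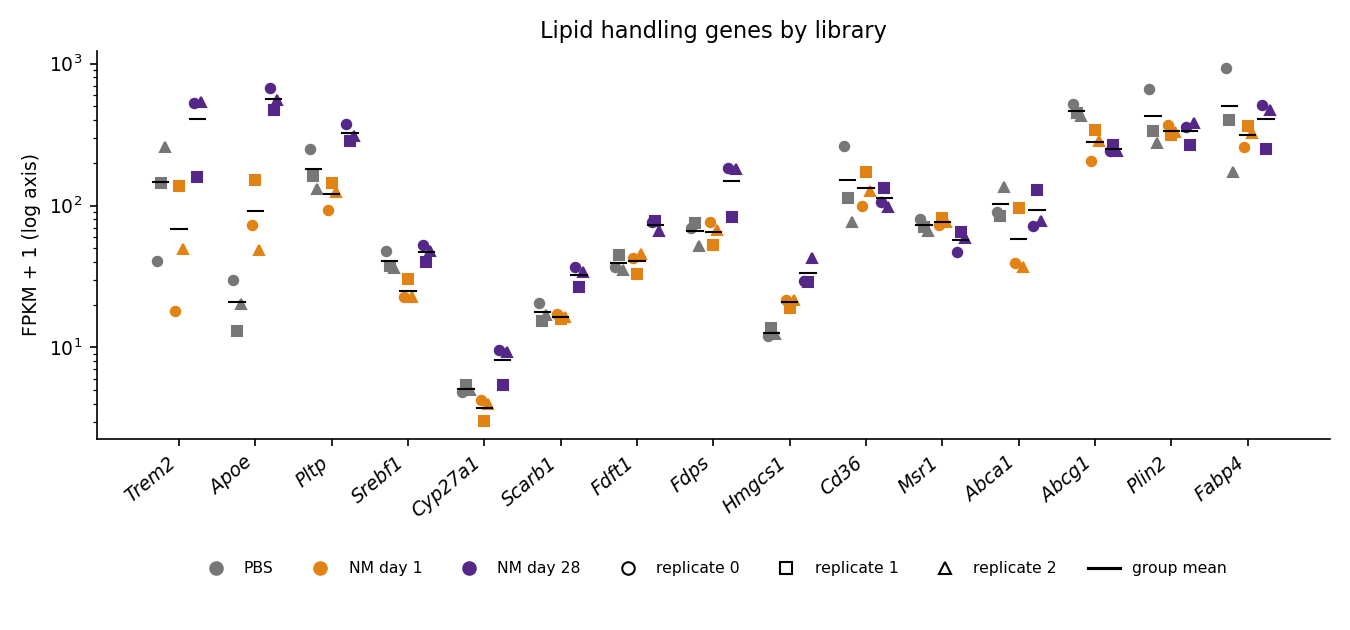
FPKM plus 1 on a log axis for 15 genes of lipid handling in each of the 9 libraries (grey PBS, orange NM day 1, purple NM day 28; marker shape gives the replicate number, black lines group means). Apoe, Pltp, Scarb1 and Fdft1 have their 3 day 28 points above their 3 day 1 points, Trem2 is spread over each group, and Cd36, Abcg1, Plin2 and Fabp4 overlap between the NM groups.

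Sterol biosynthesis rose in several steps. Of 26 tested 6 rose and 1 fell, 20 had a difference above 0, and the median was 0.33. The count that rose was 2 without NM day 1 replicate 1 or NM day 28 replicate 2, 3 without NM day 28 replicate 0 or PBS replicate 1, and 3 with only the 6 NM libraries in the fit. The fall, in Pmvk (phosphomevalonate kinase, adjusted p = 0.0483), held without NM day 28 replicate 0 or PBS replicate 2 and ended with each of the other 7 libraries left out singly. Fdft1, squalene synthase, the step that commits to sterols, rose from 41.5, 32.2 and 44.5 to 75.1, 76.5 and 65.2 FPKM (difference 0.87 ± 0.17, adjusted p = 0.00666). Scap, the sterol sensor that escorts SREBP, rose from 23.3, 29.3 and 26.2 to 45.7, 45.1 and 46.3 FPKM (difference 0.78 ± 0.16, adjusted p = 0.00799). Scap in the day 1 libraries was below all PBS values (36.98, 48.2 and 46.5), and Fdft1 at day 28 was above all PBS values (36.1, 44.2 and 34.1). Fdps, which makes farnesyl pyrophosphate, read 75.3, 51.5 and 66.1 FPKM at day 1 and 183, 82.7 and 179 at day 28 (difference 1.12 ± 0.28, adjusted p = 0.0224). It did not pass with NM day 1 replicate 1 or 2 left out singly, nor without NM day 28 replicate 0 or 2, with adjusted p from 0.0584 to 0.0957. The letters TCACNCCAC of the sterol regulatory element, which SREBP binds, were searched on either strand and stood in 0 of 19 matched promoters of the list, 5 of them of genes that rose, and in 1.11% of tested genes. No match says only that these letters are not in this window.

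Genes of lipid uptake, storage and burning had calls in both directions. Of 13 scavenger and lipoprotein receptors tested 1 rose, Scarb1, a receptor of high-density lipoprotein (16.2, 14.9 and 15.4 to 35.8, 25.6 and 32.9 FPKM, difference 0.96 ± 0.18, adjusted p = 0.0056), and 1, Cd163, fell. Scarb1 at day 28 was above each PBS value (19.6, 14.5 and 15.9). Without NM day 28 replicate 1, 3 receptors fell. Cd36, the receptor of oxidised lipoproteins, read 98.2, 171 and 125 FPKM at day 1 and 106, 132 and 97.01 at day 28 (difference -0.21 ± 0.36, adjusted p = 0.761), and Msr1, scavenger receptor A, 72.3, 81.3 and 75.2 and 45.96, 64.4 and 57.8 FPKM (difference -0.45 ± 0.16, adjusted p = 0.0927). Neither passed. Acadvl, an enzyme of mitochondrial fatty acid oxidation, rose from 53.5, 50.9 and 54.5 to 88.6, 88.4 and 87.7 FPKM (difference 0.73 ± 0.15, adjusted p = 0.00768), within the range of PBS (77.6, 104 and 86.1). Of 25 genes tested in fatty acid oxidation 2 rose, and 1 did without any 1 of the NM day 1 libraries, NM day 28 replicate 0 or 2 or PBS replicate 1. Cpt1a, which brings fatty acids into mitochondria, did not pass (difference -0.37 ± 0.16, adjusted p = 0.15).

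Genes of the cell cycle fell. Of 28 mitosis and cyclin genes tested 14 fell and 1 rose, with a median of -0.91 and 25 below 0; 10 to 15 fell with any 1 library left out. Of 27 genes of DNA replication and nucleotide supply 10 fell, with a median of -0.69 and 26 below 0; 8 to 12 fell with any 1 library left out. Mki67, the proliferation marker Ki-67, went from 18.97, 23.6 and 22.2 to 7.25, 6.47 and 7.33 FPKM (difference -1.49 ± 0.18, adjusted p = 5.00e-04). Its day 28 values also lay below PBS (13.8, 18.7 and 18.3). Ccna2, cyclin A, went from 7.23, 9.71 and 11.5 to 2.501, 1.99 and 2.75 FPKM (difference -1.60 ± 0.24, adjusted p = 0.00148), and Tpx2, a spindle factor, from 10.1, 10.96 and 9.13 to 3.59, 3.09 and 3.42 FPKM (difference -1.34 ± 0.20, adjusted p = 0.0016). Both had all 3 day 28 values below all day 1 and PBS values. Dut, which keeps uracil out of DNA, went from 48.6, 36.4 and 44.1 to 13.1, 14.5 and 17.3 FPKM (difference -1.46 ± 0.17, adjusted p = 3.80e-04). Cdt1, which loads the replicative helicase, went from 13.4, 10.7 and 11.2 to 3.31, 1.79 and 5.35 FPKM (difference -1.58 ± 0.27, adjusted p = 0.00327). Gins1, a helicase subunit, went from 21.4, 23.6 and 31.3 to 9.92, 10.97 and 6.54 FPKM (difference -1.39 ± 0.25, adjusted p = 0.00402). The member that rose was Ccne2, cyclin E2, from 9.26, 8.61 and 8.61 to 18.8, 19.97 and 15.7 FPKM (difference 0.95 ± 0.19, adjusted p = 0.0076). Its day 28 values were above all day 1 and PBS values (5.63, 7.75 and 8.09), while its paralogue Ccne1 had means of 6.02 and 2.24 FPKM at day 1 and day 28.

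**Figure D5:**
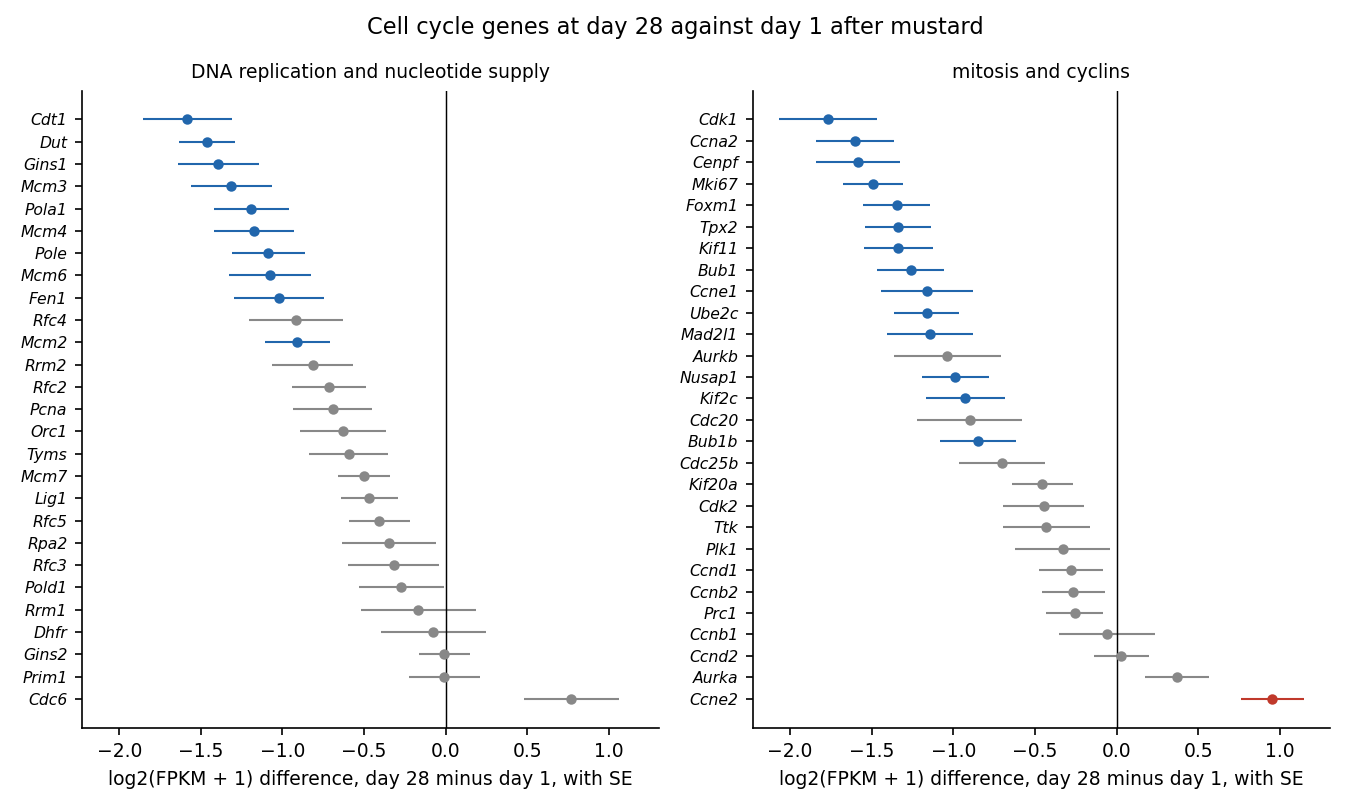
Fitted log2(FPKM + 1) difference between day 28 and day 1 with its SE for the 27 tested genes of DNA replication (left) and the 28 of mitosis and cyclins (right), ordered by size; blue genes were called lower, red higher, grey not called. Nearly all points lie left of 0, and Ccne2 is the called gene to the right.

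The E2F sites by which replication genes are switched on before S phase were searched as TTTGGCGC and TTTCCCGC on either strand. They stood in 9 of 22 matched promoters of the replication list, among them 6 of the 9 of genes that fell and 3 of the 13 of genes not called, and in 3.30% of tested genes. The letters TTTGAA of the cell cycle homology region stood in 11 of 20 matched promoters of the mitosis list, 6 of the 10 of genes that fell and 5 of the 10 of genes not called, and in 12.1% of tested genes. The 150 bases before the start are given for Gins1 (chr3:160184770-160184919, plus strand) and Mcm6 (chr13:42404353-42404502, minus strand), where the E2F letters lie near and far from the start, in capitals.
Gins1: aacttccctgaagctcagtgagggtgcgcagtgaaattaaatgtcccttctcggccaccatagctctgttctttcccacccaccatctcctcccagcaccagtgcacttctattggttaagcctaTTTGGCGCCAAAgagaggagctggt
Mcm6: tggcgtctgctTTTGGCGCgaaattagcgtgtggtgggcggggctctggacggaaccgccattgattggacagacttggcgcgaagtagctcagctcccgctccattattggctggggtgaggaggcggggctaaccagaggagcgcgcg
Mcm6, a subunit of the replicative helicase, went from 14.8, 11.4 and 13.6 to 7.19, 3.72 and 6.84 FPKM (difference -1.08 ± 0.25, adjusted p = 0.016).

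The list of p53, the factor that DNA damage activates, and of the DNA damage response had a median near 0 and some falls. Of 30 tested 5 fell, against 7.08% of all genes, and the others did not pass, with a median of -0.13. The count that fell was 3 without NM day 1 replicate 1, NM day 28 replicate 0 or NM day 28 replicate 2, and 2 genes rose without NM day 1 replicate 0. Cdkn1a, the cell cycle inhibitor p21, read 104, 61.3 and 53.9 FPKM at day 1 and 61.7, 78.9 and 58.1 at day 28 (difference -0.09 ± 0.27, adjusted p = 0.863). The groups overlapped, and all 6 values were above PBS (13.4, 11.2 and 6.98). Gadd45b, a stress-induced gene, went from 35.3, 29.1 and 28.99 to 8.796, 3.03 and 10.7 FPKM (difference -2.05 ± 0.33, adjusted p = 0.00252), and Phlda3, an inhibitor of Akt, from 7.096, 7.82 and 4.81 to 1.41, 2.92 and 0.45 FPKM (difference -1.64 ± 0.35, adjusted p = 0.0098). Phlda3 is 1 of 3 list members that passed the filter through 1 group only.

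Among 21 profibrotic and matrix genes tested 1 rose and 3 fell, with a median of 0.16, and 3 rose without NM day 28 replicate 1 and 2 without PBS replicate 0. The rise was in Ctsk, the collagen-degrading protease cathepsin K, from 16.8, 11.6 and 8.12 to 43.4, 26.7 and 39.3 FPKM (difference 1.53 ± 0.28, adjusted p = 0.00483), above all PBS values (10.7, 11.6 and 6.62). Cathepsin L (Ctsl) went the other way, from 41.3, 47.3 and 33.6 to 18.5, 12.98 and 12.4 FPKM (difference -1.42 ± 0.22, adjusted p = 0.0016). Tgfb1, the main fibrogenic cytokine, read 92.9, 114 and 127 FPKM at day 1 and 146, 98.6 and 117 at day 28 (difference 0.11 ± 0.20, adjusted p = 0.775), all below PBS (225, 206 and 156).

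Stress genes had few calls, in both directions and near the share over all genes (4.95% higher and 7.08% lower). Of 29 genes of the NRF2 list 2 rose and 2 fell. Gpx2, a glutathione peroxidase known from epithelia, fell from 33.9, 50.9 and 23.2 to 3.14, 3.603 and 5.997 FPKM (difference -2.79 ± 0.35, adjusted p = 5.88e-04). Of 23 genes of endoplasmic reticulum stress 1 rose and 2 fell. Asns, asparagine synthetase, rose from 29.7, 24 and 28.9 to 56.6, 49.5 and 54.1 FPKM (difference 0.93 ± 0.20, adjusted p = 0.00946), and the chaperone Hsp90b1 fell from 179, 239.7 and 232 to 113, 129 and 89.6 FPKM (difference -0.97 ± 0.19, adjusted p = 0.00661). Without NM day 28 replicate 1, 5 NRF2 genes and 3 endoplasmic reticulum genes rose. Counts of 2 in these lists dropped to 1 in fits without NM day 1 replicate 0, 1 or 2, NM day 28 replicate 0, 1 or 2, or PBS replicate 0 or 1, each left out singly, and 2 endoplasmic reticulum genes rose without PBS replicate 2; Gpx2, Asns and Hsp90b1 were called in all of these fits.

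Beyond the lists, several of the largest rises were in genes of varied function. They were picked among called genes whose NM groups did not overlap, so that separation describes the choice. Slc22a18, an organic cation transporter-like protein, rose from 17.6, 26.1 and 26.8 to 115, 107 and 102 FPKM (difference 2.17 ± 0.17, adjusted p = 1.71e-05), with PBS between the NM groups (63, 66.8 and 64.5). Enpp1, an enzyme that makes pyrophosphate outside cells, rose from 3.004, 7.36 and 2.72 to 23.5, 21.7 and 23.1 FPKM (difference 2.25 ± 0.28, adjusted p = 5.13e-04), and its PBS values (10.8, 8.404 and 9.86) also lay between. Gcgr, the glucagon receptor, rose from 1.396, 0.146 and 0.541 to 6.95, 5.77 and 9.03 FPKM (difference 2.33 ± 0.30, adjusted p = 7.17e-04) and passed the filter through day 28 only. Ccn5, a matricellular protein, rose from 1.22, 1.65 and 1.24 to 7.59, 7.65 and 9.402 FPKM (difference 1.96 ± 0.27, adjusted p = 0.00109). Meis3, a homeobox factor, rose from 76.3, 80.7 and 63.9 to 308, 175 and 328 FPKM (difference 1.82 ± 0.27, adjusted p = 0.00155). Gng11, a G protein subunit, rose from 2.73, 2.87 and 4.24 to 20.6, 9.21 and 18.4 FPKM (difference 1.94 ± 0.33, adjusted p = 0.00304).

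Markers of other cells were part of the shift. Of 18 alveolar epithelial genes tested 13 fell and 1 rose, with a median of -2.13; 6 of the 18 passed the filter through 1 group only, and 8 fell without NM day 1 replicate 0. Sftpc, a surfactant protein of type II cells, read 2231, 865 and 582 FPKM at day 1 and 31.7, 27.4 and 26.3 at day 28 (difference -5.15 ± 0.44, adjusted p = 3.97e-05), where PBS had 28.2, 79.1 and 30.9. Sftpb, another surfactant protein, went from 246, 98.8 and 71.2 to 2.905, 6.93 and 3.62 FPKM (difference -4.53 ± 0.40, adjusted p = 4.32e-05). In both genes NM day 1 replicate 0 had the highest value by over 2-fold. The summed FPKM of the list ran from 1063 to 3141 at day 1, from 293.5 to 403.2 at day 28 and from 254.1 to 430.3 in PBS. The member that rose was Napsa, the protease that processes surfactant protein, from 108, 122 and 126 to 241, 168 and 239 FPKM (difference 0.84 ± 0.19, adjusted p = 0.0122). It did not pass with NM day 1 replicate 0 left out singly, nor without NM day 28 replicate 0 or 2, with adjusted p from 0.0523 to 0.0541. Of 10 airway epithelial genes 4 fell, and 7 did without PBS replicate 0. Krt15, a basal cell keratin, went from 78.1, 57.7 and 42.6 to 9.17, 9.49 and 10.8 FPKM (difference -2.44 ± 0.30, adjusted p = 5.19e-04), and read 60.5, 65.3 and 27.5 FPKM in PBS.

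Some lymphocyte and endothelial markers fell. Of the tested members, 5 of 10 in the T cell list, 2 of 4 in the natural killer list and 3 of 6 in the endothelial list passed the filter through 1 group only, among them Cd8a, Klrk1 and Plvap through day 1. The T cell list summed to 83.55 to 98.14 FPKM at day 1 and 43.70 to 58.09 at day 28, with 3 of 10 tested members lower, while Cd3e, which defines T cells, was listed at 0 in 8 of 9 libraries and at 0.543 FPKM in NM day 1 replicate 1. Cd8a went from 11.5, 8.62 and 13.4 to 3.15, 1.25 and 0.694 FPKM (difference -2.26 ± 0.35, adjusted p = 0.00201). Of 4 natural killer genes tested 1 fell, 2 had a difference above 0, and the median was 0.10. The fall was in Klrk1, a receptor of natural killer cells and some T cells, from 40.4, 35.6 and 31.96 to 0.893, 1.23 and 2.56 FPKM (difference -3.90 ± 0.36, adjusted p = 5.96e-05). Of 6 endothelial genes tested 3 fell and 1 rose. Tie1, a receptor tyrosine kinase, was the one that rose, from 7.71, 10.8 and 10.4 to 36.8, 34.1 and 32.2 FPKM (difference 1.75 ± 0.28, adjusted p = 0.00238), while Plvap, which forms the diaphragms of endothelial pores, went from 2.51, 3.96 and 4.39 to 0.167, 0 and 0 FPKM (difference -2.11 ± 0.27, adjusted p = 6.78e-04). The part of these cells in the other results was not tested.

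Most genes listed as markers of resident alveolar macrophages did not pass. Of 18 tested 2 rose (Pparg and Siglec1) and 1 fell (Chi3l1), against 4.95% and 7.08% of all genes, with a median of 0.03. Each of these 3 calls ended in some fit with 1 library left out, with 2 or more of the day 1 libraries among them. Without PBS replicate 2, 4 rose. Chi3l1 was low in PBS (1.32, 2.63 and 3.45 FPKM). It read 61, 52.9 and 32.7 FPKM at day 1 and 27.6, 8.43 and 25.4 at day 28, all above PBS. The summed FPKM of the list ran from 3458 to 3862 at day 1 and from 3491 to 4008 at day 28, beside 3606 to 5814 in PBS.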

How the data were processed

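Alveolar macrophage RNA of 9 libraries (PBS, NM day 1 and NM day 28, 3 each) was sequenced as paired ends after preparation with a TruSeq RNA kit, per the labels' protocols. Per the submitters' processing notes the tools were TopHat for alignment and Cuffdiff for quantification, with the rat build rn4. Tool versions, annotation, scaling between libraries and the handling of multiply matching reads are not given in the sources used here. For each of 18197 RefSeq transcript rows the authors deposited 1 FPKM value per library. These hold no read counts, so absolute depth is unknown. Lists of significant isoforms that the labels mention were not used here.

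A RefSeq gene table (GRCr8) named 17189 rows (94.5%), and rows with the same symbol were summed to 17086 genes, 739 of them from several rows. Of these, 43 genes had a transcript listed at 0 that exceeded 20 FPKM in a library of the same group, which can be a failed estimate. Genes with at least 1 FPKM in at least 3 of the 6 NM libraries entered the test, limma's lmFit and eBayes with trend (version 3.58.1, R 4.3.3). Values were log2(FPKM + 1), and the fit had 3 group means over all 9 libraries and 6 residual degrees of freedom. The addition of 1 makes differences of low genes smaller than the ratio of their FPKM. Calls are at a Benjamini-Hochberg adjusted p under 0.05. On simulated data with 200 changed genes among 9693 for NM day 28 against NM day 1, the test recovered 60.6% of genes changed by 1 and 96.0% of those changed by 2 on the log2 scale, with 7 false calls. The changed genes were drawn from those with a mean log2(FPKM + 1) above 2, with independent normal noise. The recovery therefore does not cover genes of lower level, and no simulated library stood apart.

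The 36 gene lists (22 pathways, 14 cell types), the members and the tests were chosen with earlier results of these data known, and lists are described by counts and medians without a test. Named genes were, among called genes with a symbol, no overlap of the NM groups and a mean of at least 5 FPKM, the 12 largest rises and 12 largest falls; up to 3 called members per direction with the smallest p from each pathway list and 2 from each cell type list; and fixed genes such as Cd36, Abca1, Trem2, Spp1, Il1b and Cdkn1a whatever their values. Other list members named in the text were chosen after their values were seen. Some genes that the rule picks are summarised only in counts, and some list members are not reported here by name. Each library was left out in turn. The other alternatives were library weights, robust eBayes, the replicate number as a block, a fit to the 6 NM libraries alone (also with the block), transcripts tested singly, quantile normalisation, scaling by median of ratios, filtering at 5 FPKM or not at all, and pseudocounts of 5 and 0.1. Promoters came from RefSeq (GRCr8) by symbol and were read only for letters of known motifs. Tables and plots were made with Python 3.11.15, pandas 2.3.3 and matplotlib 3.10.9.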

Additional observations from a re-analysis of the deposited data

How the results depend on the processing

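The direction of each of the 99 called named genes held in each of the 21 alternatives that tested it, and 68 of them were called in every one. Leaving out NM day 1 replicate 0 ended the most calls of named genes (23), and leaving out PBS replicate 0 or 2 ended 6. The counts of genes ran from 233 to 629 higher and from 401 to 781 lower with 1 library left out, and from 106 to 187 higher and 350 to 513 lower by more than 2-fold. Library weights gave 874 higher and 1033 lower; the 5 FPKM filter gave 403 lower, 257 of them by more than 2-fold; a pseudocount of 5 gave 74 higher and 176 lower by more than 2-fold. The share of calls that were higher was 41.2%, 48.0% after quantile normalisation and 37.6% with median-of-ratios scaling. The replicate number as a block gave 418 higher and 643 lower. The numbers were not treated as pairs: deviations from the group means of same-numbered NM libraries correlated across genes at 0.08, 0.14 and -0.03, and NM day 1 replicate 0 correlated best with NM day 28 replicate 2 (0.10).

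Genes that did not pass could change sign, and the cause was not tested. With 1 library left out the differences ran from -0.32 to 0.033 for Abcg1 (above 0 without NM day 1 replicate 1), from -0.20 to 0.79 for Spp1 (below 0 without NM day 1 replicate 2, at -0.0053, and without NM day 28 replicate 0 or 2, at -0.080 and -0.20) and from -0.12 to 0.14 for Plin2 (above 0 without NM day 1 replicate 0, at 0.045, or NM day 28 replicate 1). They ran from -0.74 to 0.28 for Il1b and from -0.77 to 0.29 for S100a9, both above 0 without NM day 28 replicate 1. Cdkn1a ran from -0.28 to 0.19 (above 0 without NM day 1 replicate 0) and Tgfb1 from -0.038 to 0.24 (below 0 without NM day 28 replicate 0 and, at -0.018, without NM day 1 replicate 0). Library weights gave 0.094 for Plin2, 0.20 for Il1b and 0.23 for S100a9. Absolute depth is unknown, so no limit for a value of 0 was set; 181 tested genes had no day 28 library at 1 FPKM, against 10 with no day 1 library there.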

Other observations

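Families taken by symbol after the values were seen differed in how much they moved, and are described without a test. Of 7 keratin genes tested 6 fell (Krt8, Krt15, Krt17, Krt18, Krt19 and Krt23), with a median log2 difference of -2.35, and both tested beta defensins fell (Defb4 and Defb52). Defb52 was listed at 0 in every day 28 library. Among 19 C-type lectin genes 3 rose and 4 fell. The 3 that rose, Clec2d2, Clec2d2l1 and Clec2d2l2, are near copies that may share reads, and the 4 that fell were Clec10a, Clec2l, Clec4a1 and Clec4a3. Clec2d2 read 1.77, 1.74 and 1.59 FPKM at day 1, 6.49, 12.9 and 12.5 at day 28 and at most 0.823 in PBS. Itln1, a lectin of mucosal epithelia, went the other way, from 71.4, 155 and 123 FPKM at day 1 to 6.74, 5.07 and 4.39 at day 28, and read 67.7, 269 and 60.2 in PBS.

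Families of basic cell function had few called members. Cytosolic ribosomal proteins had 1 higher and 3 lower of 78 (median 0.08), complex I of the respiratory chain 2 higher of 32 (median -0.08) and the proteasome 2 higher and 2 lower of 46 (median -0.04). Psmb8, a subunit of the interferon-inducible immunoproteasome, was among the latter 2. Solute carriers had 14 higher and 9 lower of 179, near the share over all genes.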
